A study of Mus musculus with 2 samples.

Results

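Limb mesenchyme carrying Lmx1b transcripts was compared with limb mesenchyme without them in the hindlimb of mouse embryos at stage E11.5. Cells were selected on raw counts of unique molecular identifiers (UMIs, each standing for 1 captured transcript). A cell entered with at least 1000 genes, at least 8000 UMIs, at most 10% mitochondrial UMIs, at least 2 UMIs of Prrx1 (a limb mesenchyme homeobox gene) and globins under 2% of its UMIs. A cell with any UMI of Epcam (ectoderm), Cdh5 (endothelium), Lbx1 (migrating muscle precursors) or Csf1r (macrophages) was left out. Of 29393 deposited barcodes, 14931 passed. Those with at least 2 Lmx1b UMIs, 4901 cells, are called Lmx1b-positive here, and those with none, 7932 cells, Lmx1b-negative. The remaining 2098 cells, with 1 Lmx1b UMI, entered neither class.

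Lmx1b encodes a LIM-homeodomain transcription factor of the dorsal limb mesenchyme. In the textbook account, dorsal ectoderm secretes Wnt7a, which keeps Lmx1b on in the mesenchyme beneath it, while En1 keeps Wnt7a out of ventral ectoderm. Loss of Lmx1b gives limbs with ventral structures on both faces, and motor axons entering the limb choose between dorsal and ventral routes on guidance cues in the mesenchyme.

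The study placed 2 reporters at the H11 locus of FVB mice, each under the ZRS, the Shh limb enhancer found within an Lmbr1 intron. The reference enhancer drives mCherry and the variant ZRS404G>A drives eGFP. Each library is the hindlimb of 1 embryo with its own genotype. The label of dual-enSERT-1 gives ZRS-mCherry and ZRS404G>A-eGFP at H11. That of dual-enSERT-2 gives B-ZRS-mCherry, then SI, then ZRS404G>A-eGFP-B, at the same locus. The labels do not explain B or SI, and no embryo without reporters was analysed here. Construct, embryo and preparation all differ between the libraries and cannot be told apart.

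Dual-enSERT-1 gave 4392 Lmx1b-positive cells, 38.02% of its 11552 gated cells, and 5457 Lmx1b-negative cells. Dual-enSERT-2 gave 509 Lmx1b-positive cells, 15.06% of its 3379 gated cells, and 2475 Lmx1b-negative cells. Median depth in the positive and negative classes was 17343.5 and 14617 UMIs in dual-enSERT-1, and 28151 and 26884 UMIs in dual-enSERT-2. After every cell was thinned to 8000 UMIs at random, 41.04% of the gated cells of dual-enSERT-1 and 13.55% of those of dual-enSERT-2 kept an Lmx1b UMI, where 52.76% and 26.75% had at least 1 UMI before. A zero count therefore does not show that a cell lacks the transcript, and the negative class holds cells whose Lmx1b was missed. Scrublet called 15.26% of the positive and 4.911% of the negative cells of dual-enSERT-1 doublets, and 1.375% and 0.404% in dual-enSERT-2. These cells were kept, and 8 barcodes of the 2 classes occur in both libraries.

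Lmx1b, which set the classes, is described and not tested. Levels are given in CPM, the UMIs of a gene per 1e+06 UMIs summed over the cells of a class. In positive cells Lmx1b stood at 235.5 CPM in dual-enSERT-1 and 131.4 CPM in dual-enSERT-2, with medians of 4 and 3 UMIs a cell. The cells just inside the threshold, with 2 UMIs, had 118.1 and 69.32 CPM, and those just outside it, with 1 UMI, 62.28 and 34.77 CPM. Among cells of other lineages without Prrx1 UMIs, muscle cells had 0.8756 CPM in dual-enSERT-1 (3 UMIs in 144 cells) and none in the 20 cells of dual-enSERT-2, whose counting interval runs up to 6.474 CPM. Endothelial cells had 1.76 and 1.041 CPM, and ectodermal cells had 16.72 and 22.27 CPM. The ectodermal level lay above the muscle and endothelial levels by more than counting error in both libraries. No other marker of dorsal mesenchyme was in the marker lists, and the files hold no position of a cell, so dorsal origin rests on Lmx1b alone. Wnt7a and En1, which belong to ectoderm, were at most 0.1986 CPM in any class and were not tested.

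C130021I20Rik, a long noncoding RNA gene beside Lmx1b, had the largest ratio in both libraries among the genes chosen for naming. The rule named genes with at least 20 CPM in either class of each library whose log2 ratios had 1 sign, in order of the weaker of the 2 absolute log2 ratios. Its level was 57.73 CPM in positive and 6.405 CPM in negative cells of dual-enSERT-1, a ratio of 9.01 (95% counting interval 8.26 to 9.86). In the second library it was 22.57 and 0.9451 CPM, a ratio of 23.9 (18.3 to 31.6). Both positive classes were far above both negative classes. The edgeR test over all gated cells did not call it, and the size of the ratio differed between the libraries (log2 fold 3.59 ± 0.45, SE; adjusted p = 0.486). It was called by DESeq2 (log2 fold 3.81, adjusted p = 1.385e-06), and by edgeR after thinning to 8000 UMIs (2.76, adjusted p = 1.219e-48) and against depth-matched negative cells (3.98, adjusted p = 0.00627). The other 7 settings did not call it (adjusted p from 0.279 to 0.9999). All these settings use the same 2 libraries, whose ratios differed, so the small adjusted p after thinning adds no replication. C130021I20Rik passed among cells with Hoxd13 or Hoxa13 transcripts (log2 fold 3.59, edgeR adjusted p = 5.224e-05).

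In the gene annotation of GRCm39 (GENCODE M39), Lmx1b covers chr2:33450977-33531093 on the minus strand and C130021I20Rik chr2:33531205-33556659 on the plus strand. The genes point away from each other with 112 bases from the end of the first to the start of the second, and they do not overlap. The stretch between their RefSeq starts is shown because the class-defining gene and the RNA that tracked it start there. It is the plus strand of GRCm38.p6 at chr2:33641049-33641242, 5′ to 3′, with capitals for the 96 bases that run from the Lmx1b start at the left to the C130021I20Rik start at the right.
Lmx1b and C130021I20Rik: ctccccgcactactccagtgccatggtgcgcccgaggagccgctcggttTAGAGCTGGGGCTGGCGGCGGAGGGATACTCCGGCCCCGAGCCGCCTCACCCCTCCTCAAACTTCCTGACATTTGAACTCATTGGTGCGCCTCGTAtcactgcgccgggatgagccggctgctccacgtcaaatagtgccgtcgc
The window of 194 bases has a GC content of 64.95% and 18 CpG dinucleotides. No file analysed here measures binding or chromatin at it.

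The classes were compared for all genes on 4 sums of raw UMIs, 1 for each library and class, with edgeR's quasi-likelihood test and the library as a block. This leaves 1 residual degree of freedom, moderated across genes. The p-values set the class difference against how far it disagreed between 2 embryos whose constructs differ. Of 21654 genes tested, 91 passed an adjusted p of 0.05, which is 0.42%. Among them 74 (0.342%) were higher and 17 (0.0785%) lower in Lmx1b-positive cells, and 90 of the 91 had the same direction in both libraries. The exception, Actc1, had no UMI in either class of dual-enSERT-2. Disagreement between the libraries raises the p-value, so the shared direction of called genes is only a description. At an unadjusted p under 0.05 there were 1681 genes. Without the library block edgeR called 0 genes. Among cells with mitochondrial UMIs at most 5% it called 46, all of them among the 91, and without the called doublets 113, of which 89 were among the 91. The naming rule was met by 26 genes in the higher direction, of which 15 were named, and by 3 in the lower direction. Since the same ratios chose them, it is only a description that 15 of these 18 passed.

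**Figure D1:**
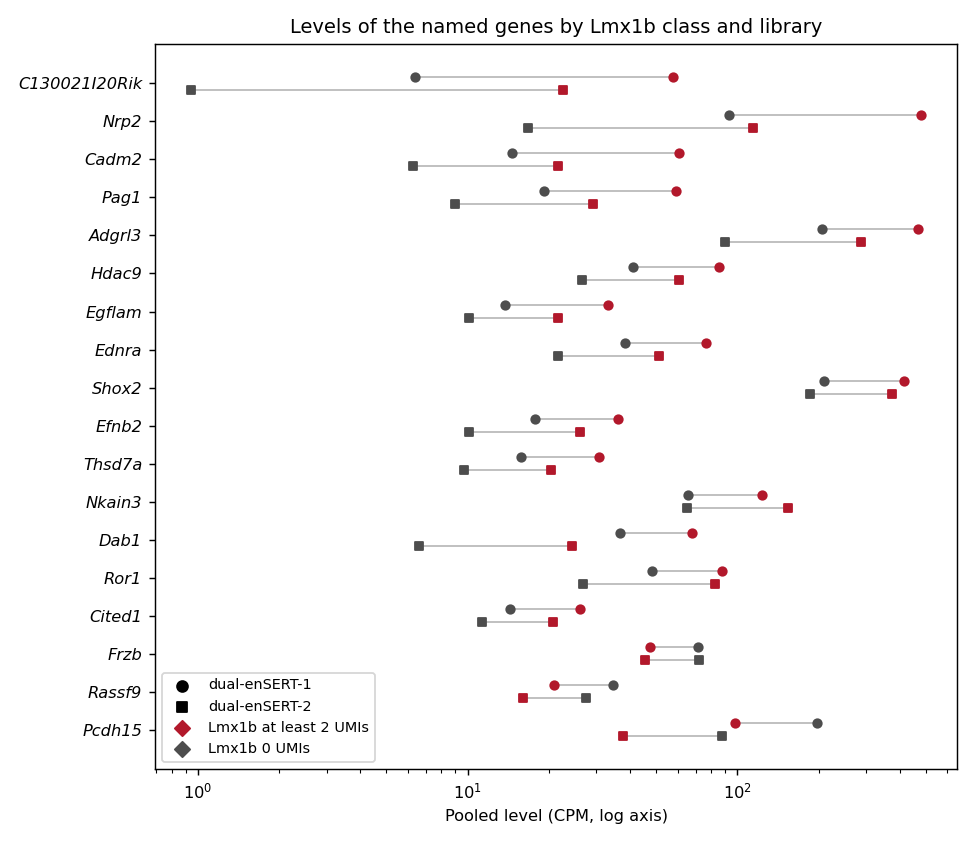
Pooled level (CPM, log axis) of the 18 named genes in Lmx1b-positive (red) and Lmx1b-negative (grey) cells of dual-enSERT-1 (circles) and dual-enSERT-2 (squares), each point 1 library and class. The red point lies to the right for 15 genes, by most for C130021I20Rik and Nrp2, and to the left for Frzb, Rassf9 and Pcdh15.

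Nrp2, which encodes neuropilin-2, a co-receptor for class 3 semaphorins and for VEGF-C, was higher in Lmx1b-positive cells. In GRCm39 it lies at chr1:62742444-62857854 on the plus strand. Its level was 479.5 CPM in positive and 92.94 CPM in negative cells of dual-enSERT-1, with 114.2 and 16.72 CPM in dual-enSERT-2. The ratio was 5.16 (5.04 to 5.28) in the first library and 6.83 (6.34 to 7.37) in the second, and the edgeR log2 fold was 2.51 ± 0.094 (SE; adjusted p = 0.0003206). Each positive class was above the negative class of either library. Nrp2 was not confined to mesenchyme, since endothelial cells had 137.6 and 128.0 CPM. Gm37121, which lies inside Nrp2 on the same strand, was also called higher (log2 fold 2.84, edgeR adjusted p = 0.001269), and reads of the 2 features cannot be assigned with certainty.

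Nrp2 belongs to a list of 30 tested axon guidance cues and receptors, of which 4 were higher, 0 lower and 26 not called. Over all genes tested, 0.342% were called higher and 0.0785% lower, the shares to set beside this list and the lists below. Efnb2, the transmembrane ligand ephrin-B2, was at 36.15 and 17.80 CPM in positive and negative cells of dual-enSERT-1, and at 26.14 and 10.15 CPM in dual-enSERT-2 (log2 fold 1.13 ± 0.096; adjusted p = 0.003417). Epha7, a receptor for A-type ephrins, was at 145.5 and 94.52 CPM in the first library and 93.59 and 47.12 CPM in the second (log2 fold 0.75 ± 0.084; adjusted p = 0.0119). Robo2, a receptor for Slit proteins, was at 1325 and 894.9 CPM in the first and 730.8 and 390.7 CPM in the second (log2 fold 0.69 ± 0.080; adjusted p = 0.0119). For these 3 genes the classes were ordered alike within each library, by 1.48 to 2.58 times. The list's median log2 fold was 0.25, against -0.01 over all genes tested. Over its members, 14 had a ratio above 1 in both libraries and 5 below 1 in both, where 34.5% and 24.5% of all tested genes did so.

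Ntn1, the secreted guidance molecule netrin-1, had 37.05 and 6.29 CPM in the positive and negative cells of dual-enSERT-1, with 5.56 and 1.817 CPM in dual-enSERT-2. Its ratios of 5.89 and 3.06 stayed short of the threshold over all gated cells (edgeR adjusted p = 0.121) and passed among cells with Hoxd13 or Hoxa13 (adjusted p = 0.012). The ephrin receptor gene Epha4 had 313.8 and 305.2 CPM in dual-enSERT-1, with 167.3 and 243.3 CPM in dual-enSERT-2 (edgeR adjusted p = 0.770). Nrp1, the relative of Nrp2, had 74.46 and 99.64 CPM in dual-enSERT-1, with 97.49 and 111.2 CPM in dual-enSERT-2. Its log2 fold of -0.36 did not pass over all gated cells (edgeR adjusted p = 0.119), and did among cells with Hoxd13 or Hoxa13 (log2 fold -0.41, adjusted p = 0.0459).

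Cadm2, an immunoglobulin-superfamily adhesion molecule, was higher, at 60.95 and 14.63 CPM in the positive and negative cells of dual-enSERT-1, with 21.71 and 6.252 CPM in dual-enSERT-2 (log2 fold 1.90 ± 0.10; edgeR adjusted p = 0.00047). Pag1, a membrane adaptor of Src-family kinase signalling, was higher, at 59.48 and 19.13 CPM in the first library and 29.19 and 8.956 CPM in the second (log2 fold 1.62 ± 0.078; adjusted p = 0.000343). Adgrl3, the adhesion receptor latrophilin-3, was higher, at 466.6 and 206.4 CPM and at 286.9 and 89.77 CPM (log2 fold 1.37 ± 0.11; adjusted p = 0.0111). Its call was lost without TMM scaling (log2 fold 1.42, adjusted p = 0.186) and with Lmx1b of at least 3 UMIs (1.49, adjusted p = 0.0648). The call of Cadm2 was lost with Lmx1b of at least 1 UMI (1.64, adjusted p = 0.05096). These 3 genes had ratios between 2.26 and 4.17, and no negative class of a library reached its positive class.

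Ednra, the endothelin A receptor, was higher, at 76.56 and 38.18 CPM in dual-enSERT-1, with 51.23 and 21.62 CPM in dual-enSERT-2 (log2 fold 1.07; edgeR adjusted p = 0.00164). Egflam, a secreted matrix protein, and the membrane protein genes Thsd7a and Nkain3 were higher by log2 folds of 1.15, 0.96 and 1.02 (edgeR adjusted p = 0.00291, 0.00386 and 0.00236). Hdac9, a histone deacetylase, went from 41.03 to 85.74 CPM and from 26.61 to 60.63 CPM between negative and positive cells (log2 fold 1.08; adjusted p = 0.00127). Cited1, a transcriptional co-regulator, went from 14.34 to 26.07 CPM and from 11.31 to 20.78 CPM (log2 fold 0.82; adjusted p = 0.00765). Dab1, an adaptor of reelin signalling, and Ror1, a receptor tyrosine kinase that binds Wnt5a, met the naming rule without passing the test. Their log2 folds were 1.25 ± 0.31 (edgeR adjusted p = 0.629) and 1.18 ± 0.22 (adjusted p = 0.4995), and the ratio differed between the libraries, 1.85 and 3.68 for Dab1 and 1.81 and 3.101 for Ror1. Both passed edgeR after thinning (adjusted p = 1.433e-12 and 1.025e-10), and Ror1 also against depth-matched negative cells (0.000273) and without the filter on low counts (0.00172). Under the other settings adjusted p ran from 0.229 to 0.9999 for Dab1 and from 0.0984 to 0.9999 for Ror1. The calls after thinning rest on the same 2 libraries with unlike ratios and add no replication.

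**Figure D2:**
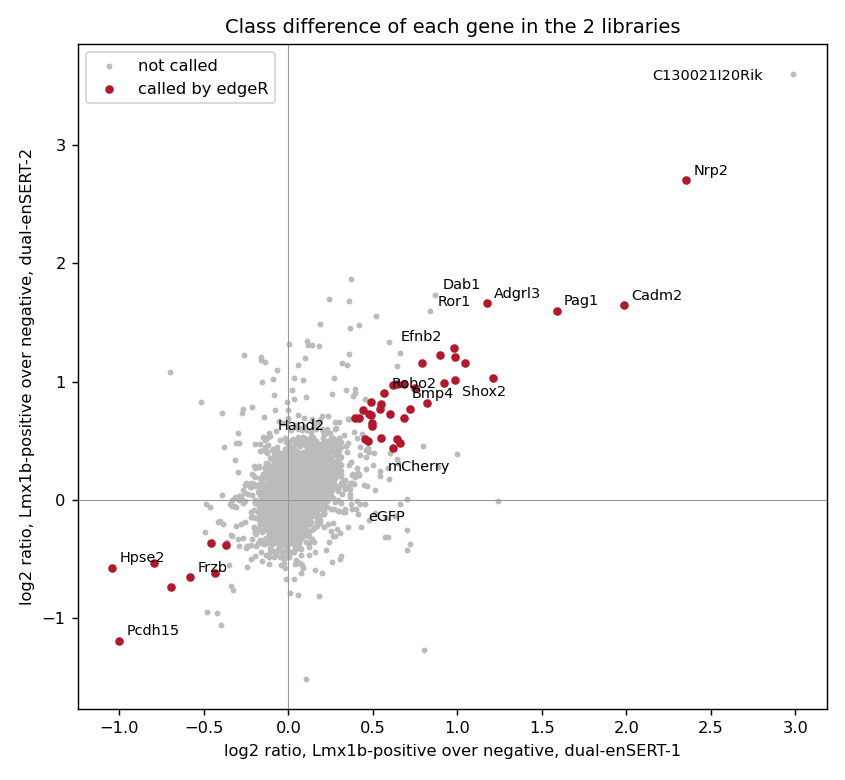
Log2 ratio of pooled CPM (pseudocount 1 CPM), Lmx1b-positive over Lmx1b-negative cells, in dual-enSERT-1 (horizontal) and dual-enSERT-2 (vertical) for tested genes with at least 20 CPM in either class of each library, each point 1 gene. The called genes (red) lie on the same side of 0 on both axes, which the test favours. The eGFP point lies right of 0 and below it, and C130021I20Rik stands at 2.99 and 3.60 without a call.

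Shox2, a homeobox gene needed for the skeleton of the upper limb segments, was higher in Lmx1b-positive cells. It had 415.2 and 209.3 CPM in positive and negative cells of dual-enSERT-1, with 375.3 and 185.6 CPM in dual-enSERT-2. Its ratios were 1.98 (1.95 to 2.02) and 2.02 (1.96 to 2.09), with an edgeR log2 fold of 0.95 ± 0.062 (adjusted p = 0.00127). Both positive classes were above both negative classes. Among 11 tested proximal factors Shox2 was the 1 called gene, and Meis1 and Meis2, homeobox genes of the proximal limb, differed between the libraries. Meis1 had 68.09 and 52.99 CPM in the first library and 124.3 and 38.05 CPM in the second (edgeR adjusted p = 0.786). Meis2 had 148.5 and 157.9 CPM in the first and 301.6 and 147.9 CPM in the second (adjusted p = 0.873). Of 10 tested distal factors none was called (edgeR), with a median log2 fold of -0.31. In this list 0 were above a ratio of 1 in both libraries and 5 below it in both, where 34.5% and 24.5% of all tested genes were.

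Among 17 tested BMP ligands, antagonists and response genes, 3 were higher and 0 lower, where 0.342% and 0.0785% of all genes tested were. Bmp4, a BMP ligand of limb mesenchyme, had 139.2 and 86.26 CPM in the positive and negative cells of dual-enSERT-1, with 118.4 and 59.55 CPM in dual-enSERT-2 (log2 fold 0.79 ± 0.076; edgeR adjusted p = 0.00603). Bmp2, another ligand, had 15.25 and 6.923 CPM in the first library and 1.721 and 0.7851 CPM in the second (log2 fold 1.10; adjusted p = 0.0227). Chrdl1, a secreted BMP antagonist, had 18.85 and 10.14 CPM in the first and 14.83 and 5.816 CPM in the second (log2 fold 1.05; adjusted p = 0.0119). Ligands and an antagonist were thus called in the same direction. The response genes Id1, Id2 and Id3 were not called, with log2 folds of 0.13, 0.26 and 0.10. Grem1, a further antagonist, had 53.31 and 30.09 CPM in the first library and 24.29 and 59.96 CPM in the second, with opposite order of the classes (edgeR adjusted p = 0.983).

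In a list of 24 tested Wnt genes, 1 was higher and 1 lower, beside 0.342% and 0.0785% of all genes tested. Notum, a secreted enzyme that inactivates Wnt ligands, had 3.946 and 1.498 CPM in the positive and negative cells of dual-enSERT-1, with 1.919 and 0.5816 CPM in dual-enSERT-2 (log2 fold 1.46 ± 0.20; edgeR adjusted p = 0.0307). Frzb, a secreted Wnt antagonist, was lower, at 47.55 and 71.60 CPM in the first and 45.47 and 72.06 CPM in the second (log2 fold -0.67 ± 0.070; adjusted p = 0.00765). Its call was lost with Lmx1b of at least 3 UMIs (-0.79, adjusted p = 0.0536). The remaining 22 were not called. Wnt5a, a ligand of distal mesenchyme, had 173.4 and 201.8 CPM in dual-enSERT-1, with 91.67 and 130.2 CPM in dual-enSERT-2 (log2 fold -0.40; edgeR adjusted p = 0.204).

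Pcdh15, a protocadherin known from the tip links of inner ear hair cells, was lower in Lmx1b-positive cells, with the lowest ratios among the 3 named lower genes. In GRCm39 it covers chr10:72935174-74485569 on the plus strand. Its level was 97.86 CPM in positive and 196.8 CPM in negative cells of dual-enSERT-1, with 37.73 and 87.44 CPM in dual-enSERT-2. The ratios were 0.497 (0.484 to 0.511) and 0.432 (0.395 to 0.470), and the edgeR log2 fold was -1.15 ± 0.080 (adjusted p = 0.00153). Gm15398, on the opposite strand inside Pcdh15, was called in the same direction (log2 fold -1.21, adjusted p = 0.00342), and its reads cannot be told from those of Pcdh15 with certainty. Rassf9, a Ras-association domain gene, was lower as well, at 20.92 and 34.47 CPM and at 16.08 and 27.47 CPM (log2 fold -0.79; adjusted p = 0.00765). The other called lower genes with known products included Hpse2, the heparanase-2 gene, with a log2 fold of -0.86, Cited2 with -0.58, and Ifitm1 with -0.74 (edgeR adjusted p = 0.0379, 0.0227 and 0.00744).

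Osr1, a zinc-finger gene of limb connective tissue, was higher, at 33.89 and 19.00 CPM in dual-enSERT-1, with 7.612 and 3.62 CPM in dual-enSERT-2 (log2 fold 0.88 ± 0.099; edgeR adjusted p = 0.0106). It was the 1 gene called among 9 tested posterior factors and among 18 tested genes of tendon and connective tissue. Pax9, an anterior limb gene, was lower, at 6.447 and 13.13 CPM and at 0.5295 and 1.338 CPM (log2 fold -1.10 ± 0.16; adjusted p = 0.0379), alone among 9 tested anterior factors. Lmo1, a LIM-only protein, was lower among 14 tested LIM-domain relatives and partners, at 50.19 and 69.18 CPM and at 157.2 and 202.9 CPM (log2 fold -0.46 ± 0.063; adjusted p = 0.0259). Ldb2, which encodes a cofactor that binds LIM domains, had 156.4 and 99.97 CPM in the first library and 140.5 and 63.64 CPM in the second. It missed the threshold over all gated cells (log2 fold 0.84, adjusted p = 0.0573) and passed among cells with Hoxd13 or Hoxa13 (log2 fold 0.99, adjusted p = 0.000547). The cofactor Ldb1 had ratios near 1, with a log2 fold of -0.04 ± 0.067 (adjusted p = 0.908).

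**Figure D3:**
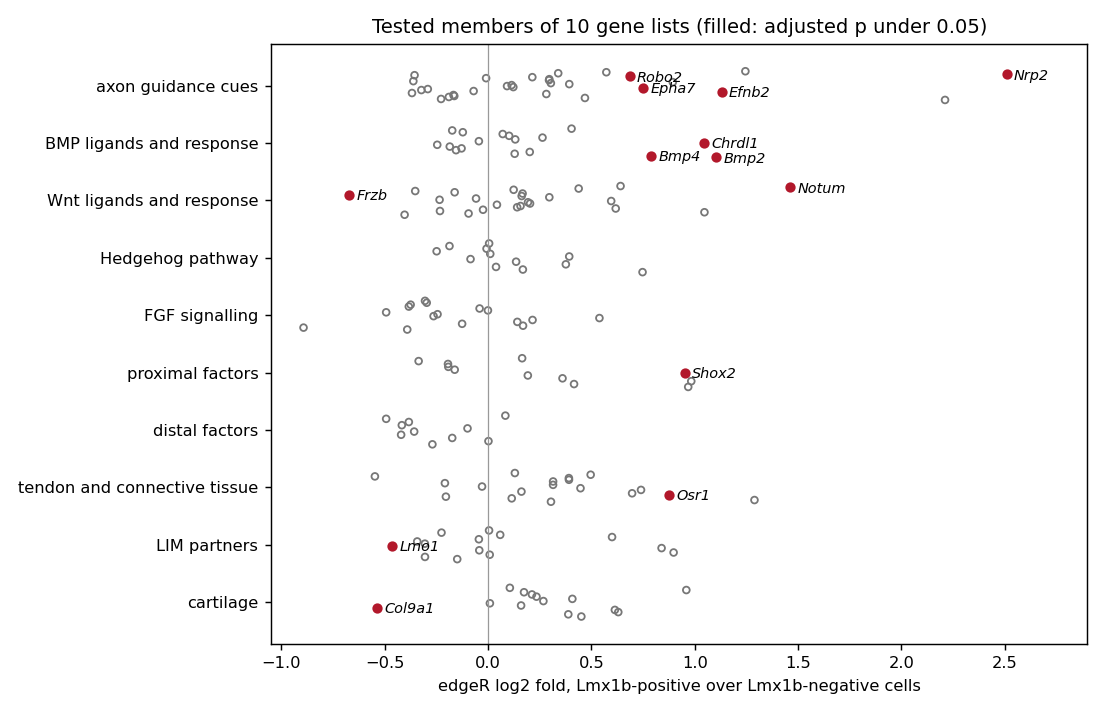
EdgeR log2 fold, Lmx1b-positive over Lmx1b-negative cells, of the tested members of 10 gene lists, each circle 1 gene and filled red where the adjusted p was under 0.05. Axon guidance and BMP genes called lie right of 0, Frzb, Lmo1 and Col9a1 left of it, and the Hedgehog, FGF and distal lists hold no called gene.

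Of 14 tested cartilage genes, Col9a1, a cartilage collagen, was lower (log2 fold -0.54 ± 0.080; edgeR adjusted p = 0.0403) and none was higher. Sox9, the cartilage master regulator, had 211.7 and 233.4 CPM in the positive and negative cells of dual-enSERT-1, with 157.3 and 69.46 CPM in dual-enSERT-2 (adjusted p = 0.887). None of 16 tested FGF signalling genes was called by edgeR, with a median log2 fold of -0.25. None was called among 7 tested small leucine-rich proteoglycans, a family of collagen-binding matrix proteins. In that family Dcn had 5.747 and 2.339 CPM in dual-enSERT-1, with 1.324 and 0.6107 CPM in dual-enSERT-2 (log2 fold 1.21 ± 0.19; adjusted p = 0.0537). Lum had 23.13 and 3.721 CPM in dual-enSERT-1 but 4.236 and 2.908 CPM in dual-enSERT-2 (adjusted p = 0.755).

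No member of the marker lists of other lineages was called. Outside those lists, Actc1, a striated muscle actin gene, was called lower, at 0.195 and 2.097 CPM in dual-enSERT-1 and without a UMI in dual-enSERT-2 (log2 fold -3.43, edgeR adjusted p = 0.0277). Summed ectodermal markers were at 17.8 and 20.29 CPM in the positive and negative cells of dual-enSERT-1, with 8.935 and 9.771 CPM in dual-enSERT-2. Summed endothelial markers were at 18.14 and 20.25 CPM and at 20.19 and 20.69 CPM, and muscle markers at 7.342 and 7.661 CPM and at 1.324 and 1.716 CPM. Globin-led erythroid markers were at 292.8 and 303.2 CPM in the first library and 2370 and 2467 CPM in the second. Epcam, Cdh5, Lbx1 and Csf1r are at 0 by the gate. The 16 tested genes of S phase and the 16 of G2 and M phase held no call, and the G2 and M genes summed to 3726 and 3484 CPM in the first library and 3954 and 3622 CPM in the second. The summed S phase genes ran the other way in each library, with 2415 and 2499 CPM in the second. In both libraries 10 of the G2 and M genes had a ratio above 1 and 0 below it, against 1 and 10 of the S phase genes. Of all tested genes, 34.5% were above 1 in both libraries and 24.5% below 1 in both.

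Levels were also read against the number of Lmx1b UMIs in cells thinned to 8000 UMIs, so that depth was equal. These are descriptions over the same cells. Nrp2 stood at 138.2, 345.5, 461.2, 561.1 and 717.3 CPM in cells of dual-enSERT-1 with 0, 1, 2, 3 and at least 4 Lmx1b UMIs, and at 25.03, 87.01, 150.2, 176.5 and 285.2 CPM in dual-enSERT-2. It was higher at every step in both libraries. Pcdh15 stood at 156.9, 87.11, 66.29, 62.41 and 45.15 CPM in dual-enSERT-1, and at 74.85, 55.65, 34.40, 40.44 and 19.53 CPM in dual-enSERT-2, where the last 2 bins held 34 and 32 cells. Shox2 went from 259.2 CPM at 0 to 499.8 CPM at 2 Lmx1b UMIs and 574.1 CPM at 4 or more in dual-enSERT-1, and from 202.5 to 439.2 and 480.5 CPM in dual-enSERT-2. Bmp4 was at 92.28, 139.6 and 110 CPM at 0, 2 and at least 4 Lmx1b UMIs in dual-enSERT-1, so its highest level there was in the middle of the range. In dual-enSERT-2 it was at 65.22 CPM at 0 and between 99.26 and 113.3 CPM in all other bins.

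**Figure D4:**
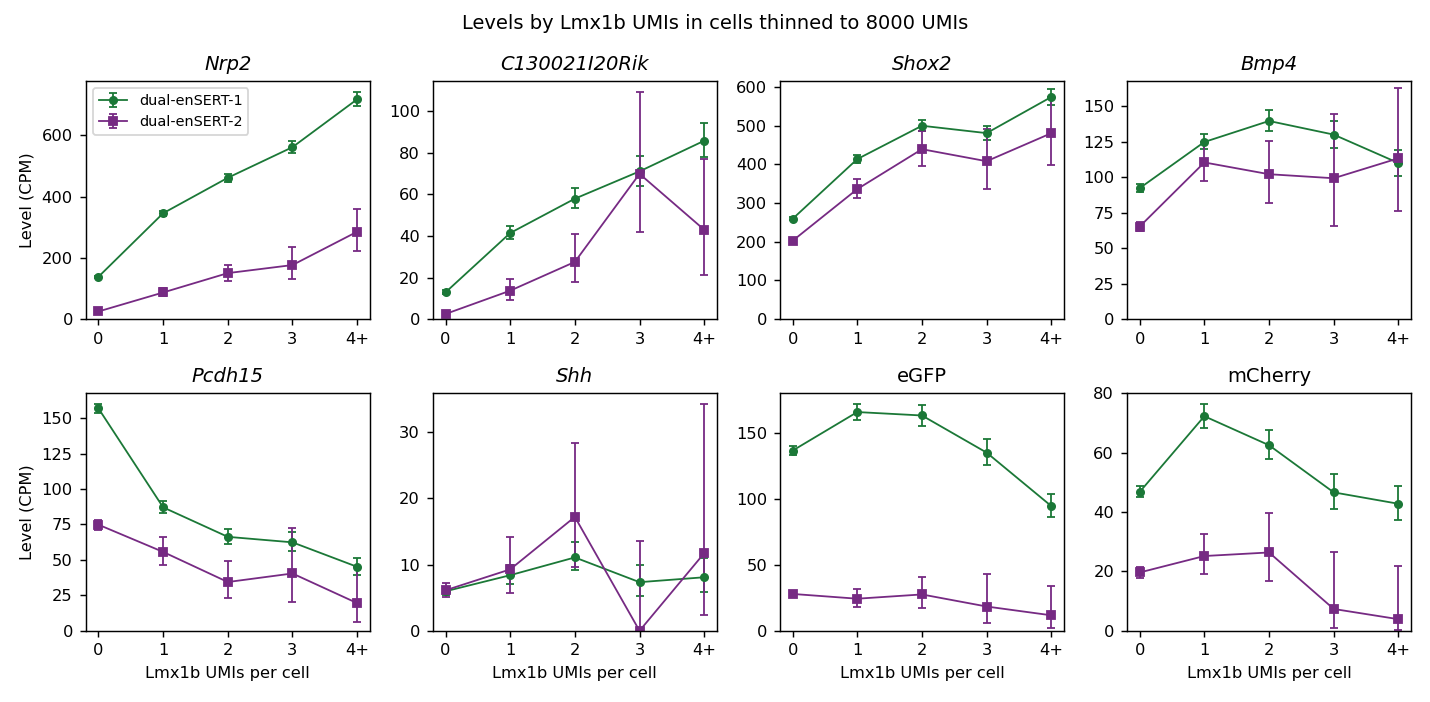
Level (CPM) of 8 genes by the number of Lmx1b UMIs in cells thinned to 8000 UMIs, in dual-enSERT-1 (green circles) and dual-enSERT-2 (purple squares), with exact Poisson intervals of 95% for counting error. Nrp2 is higher at every step in both libraries, Pcdh15 falls most between 0 and 2 UMIs, and eGFP in dual-enSERT-1 is lowest, at 94.44 CPM, in cells with at least 4 Lmx1b UMIs.

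Hoxd13 and Hoxa13 mark the distal part of the limb, the future foot. At least 1 UMI of either was seen in 50.96% of Lmx1b-positive cells of dual-enSERT-1 (exact interval 49.47% to 52.45%) and in 49.31% of its negative cells (47.98% to 50.65%). In dual-enSERT-2 the shares were 32.81% (28.74% to 37.08%) and 37.49% (35.58% to 39.44%). The intervals of the 2 classes overlapped in both libraries. After thinning to 8000 UMIs, in classes set before thinning, the shares came to 40.14% and 41.69% in dual-enSERT-1, with 18.07% and 20.69% in dual-enSERT-2. Negative cells matched on depth had shares of 58.5% (55.79% to 61.17%) in dual-enSERT-1 and 39.35% (37.06% to 41.68%) in dual-enSERT-2, so the positive minus negative difference was -7.54 and -6.54 percentage points. An exact test over 2 libraries cannot go below p = 0.5, so none was run. Neither gene was called over all gated cells, with log2 folds of 0.00 for Hoxd13 (edgeR adjusted p = 0.9997) and -0.27 for Hoxa13 (adjusted p = 0.310). Hoxa13 was called lower against depth-matched negative cells (log2 fold -0.38, adjusted p = 0.00843) and without the filter on low counts (-0.27, adjusted p = 0.0409), and not under the other 8 settings (0.237 to 0.9999).

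The class difference was then fitted within each stratum of these genes. The shares fell on thinning, so cells counted as having neither gene include some whose Hoxd13 or Hoxa13 was missed. Among cells with Hoxd13 or Hoxa13, 113 of 18949 genes were called (0.596%), 91 higher (0.48%) and 22 lower (0.116%). Among cells with neither, 75 of 19059 were called (0.394%), 60 higher (0.315%) and 15 lower (0.0787%). The strata shared 28 of the higher genes, which is 30.77% of the first set and 46.67% of the second, and 9 lower genes, 40.91% and 60.0%. Shared higher genes included Cadm2, Pag1, Adgrl3, Ednra, Efnb2, Osr1 and Pcdh10, and shared lower genes included Pcdh15, Frzb, Rassf9 and Cited2. The test of the difference between strata called 0 of 20062 genes by edgeR, with 228 at an unadjusted p under 0.05. That is fewer than this threshold would give with no effect at all. The fit used 8 sums with the library as a block and no term for library by class or library by stratum. Differences of that kind stayed in its residual spread, so a lack of calls does not show that the strata are alike.

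Among cells with Hoxd13 or Hoxa13, Nrp2 had 517.1 and 73.88 CPM in the positive and negative cells of dual-enSERT-1, and 154.3 and 18.88 CPM in those of dual-enSERT-2. Among cells with neither it had 424.6 and 116.5 CPM in the first library and 89.96 and 15.21 CPM in the second. Its call held in the first stratum (edgeR adjusted p = 2.625e-06) and not in the second (adjusted p = 0.0927), while the difference between strata was 0.79 on the log2 scale (unadjusted p = 0.158, adjusted p = 1.0). Shox2 passed among cells without Hoxd13 or Hoxa13 (adjusted p = 0.00205) and not among the others (adjusted p = 0.237), with a difference between strata of 0.08 (adjusted p = 1.0). Bmp4 likewise passed among cells with neither (adjusted p = 0.00336) and not among the others (adjusted p = 0.223). The Pcdh15 ratio was 0.469 and 0.421 in the first stratum and 0.451 and 0.533 in the second, and its level was higher in the first stratum in both classes.

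For the reporters, the 2 libraries gave different orders of the classes for eGFP. The level of eGFP, driven by ZRS404G>A, was 167.1 CPM in positive and 123.7 CPM in negative cells of dual-enSERT-1, 1.35 times as high (1.32 to 1.39). In the second library it was 24.16 and 28.42 CPM, a ratio of 0.850 (0.758 to 0.951). The edgeR log2 fold over both was 0.11 ± 0.22 (adjusted p = 0.937). The level of mCherry, driven by the reference ZRS, was 63.25 and 43.06 CPM in dual-enSERT-1, 1.47 times as high in positive cells (1.41 to 1.53), and 23.96 and 20.70 CPM in dual-enSERT-2, a ratio of 1.16 (1.03 to 1.30). Its log2 fold was 0.36 ± 0.10, short of the threshold (edgeR adjusted p = 0.414). With classes and reporters both taken after thinning to 8000 UMIs, the log2 folds were 0.062 for mCherry and -0.13 for eGFP. Against depth-matched negative cells they were 0.13 and 0.10. Pooled muscle, ectoderm and endothelium cells held 30.71 CPM of eGFP and 8.115 CPM of mCherry in dual-enSERT-1, with 4.398 and 5.174 CPM in dual-enSERT-2.

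At 8000 UMIs a cell, 38.18% of positive and 32.18% of negative cells of dual-enSERT-1 had an eGFP UMI, and 20.34% of its other lineages. The classes in these shares were still those set on unthinned Lmx1b counts, so they were chosen at unequal depth. Unthinned, the 2 class shares were 56.69% and 45.57%, and the share of the other lineages 47.06%. In dual-enSERT-2 the thinned shares were 13.95% and 12.2%, with 4.795% in other lineages, and the unthinned class shares 29.08% and 28.32%. For mCherry the thinned shares were 14.59% and 11.97% in dual-enSERT-1 (other lineages 6.863%), and 56 of 509 cells and 10.3% in dual-enSERT-2 (other lineages 6.849%). Unthinned they were 24.86% and 18.8%, and 24.95% and 22.99%. Other lineages had a median depth of 19205 and 21781 UMIs, and all 4 class shares lay above theirs for each reporter after thinning. For mCherry in dual-enSERT-2 the exact intervals overlapped with that of the other lineages (3.333% to 12.24%).

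By the number of Lmx1b UMIs, eGFP stood at 136.4, 165.6, 163.0, 134.9 and 94.44 CPM in dual-enSERT-1 from 0 to at least 4 Lmx1b UMIs, the lowest value being in the cells richest in Lmx1b. In dual-enSERT-2 it stood at 27.90, 24.29, 27.52, 18.38 and 11.72 CPM. After thinning, mCherry in dual-enSERT-1 stood at 46.76, 72.27, 62.50, 46.62 and 42.78 CPM over the same bins. In dual-enSERT-2 mCherry stood at 19.64, 25.18, 26.38, 7.353 and 3.906 CPM. The last 2 bins of that library, with 34 and 32 cells, held 5 and 3 UMIs of eGFP and 2 and 1 of mCherry. Neither reporter followed the stepwise order seen for Nrp2.

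**Figure D5:**
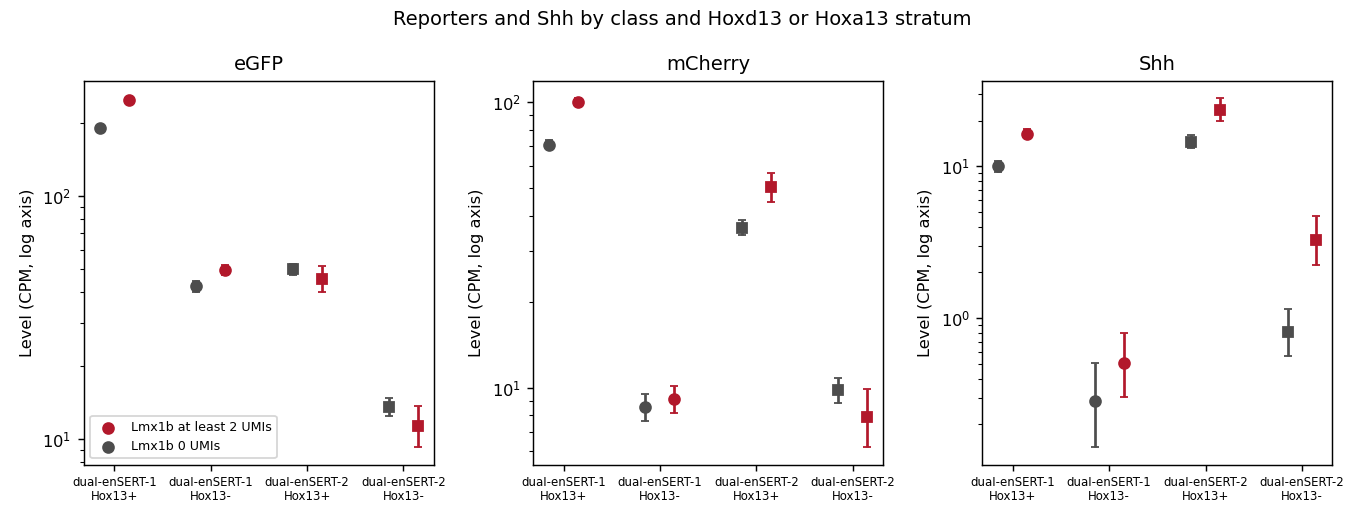
Level (CPM, log axes) of eGFP, mCherry and Shh in Lmx1b-positive (red) and Lmx1b-negative (grey) cells with (Hox13+) or without (Hox13-) Hoxd13 or Hoxa13 UMIs, in dual-enSERT-1 (circles) and dual-enSERT-2 (squares), with exact Poisson intervals of 95% for counting error. In Hox13+ cells mCherry and Shh are higher in the positive class of both libraries, and eGFP in that of dual-enSERT-1. Shh is also higher in the positive class of both libraries in Hox13- cells, on 11 to 33 UMIs a class.

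Among cells with Hoxd13 or Hoxa13, mCherry was higher in Lmx1b-positive cells, at 100.4 and 71.04 CPM in dual-enSERT-1, with 50.48 and 36.35 CPM in dual-enSERT-2 (log2 fold 0.46, edgeR adjusted p = 0.0243). The ratios were 1.41 (1.35 to 1.48) and 1.39 (1.21 to 1.58). In the same cells eGFP had 247.5 and 189.5 CPM in the first library and 45.40 and 49.86 CPM in the second (log2 fold 0.16, adjusted p = 0.837). Among cells with neither Hox gene, mCherry was at 9.083 and 8.52 CPM and at 7.869 and 9.778 CPM (adjusted p = 0.884). Pooled cells of other lineages had 8.115 CPM (6.424 to 10.11) in dual-enSERT-1 and 5.174 CPM (3.16 to 7.99) in dual-enSERT-2. With levels this close to those of other lineages, a class difference in this stratum would be hard to see. The difference of the mCherry fold between strata was 0.73 on the log2 scale and did not pass (adjusted p = 1.0).

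Shh, the signal of the posterior limb margin that the native ZRS controls, differed between the classes in the same direction as mCherry. Over all gated cells Shh was at 9.945 and 5.645 CPM in the positive and negative cells of dual-enSERT-1, with 10.99 and 6.47 CPM in dual-enSERT-2, ratios of 1.76 (1.58 to 1.97) and 1.70 (1.41 to 2.03). It missed the threshold there (log2 fold 0.75 ± 0.12, edgeR adjusted p = 0.0541). It passed without TMM scaling (adjusted p = 0.0264), without the filter on low counts (6.688e-06), with Lmx1b of at least 1 UMI (0.00633), against depth-matched negative cells (0.0253) and without doublets (0.0393), at log2 folds of 0.56 to 0.79. It did not pass under the other 5 settings, DESeq2 among them (adjusted p from 0.0772 to 0.9999). It passed among cells with Hoxd13 or Hoxa13, at 16.41 and 9.988 CPM and at 23.66 and 14.57 CPM (log2 fold 0.68, adjusted p = 0.0307). A Shh UMI was seen in 284 of 4392 positive cells (6.466%) and 205 of 5457 negative cells (3.757%) of dual-enSERT-1, and in 48 of 509 (9.43%) and 128 of 2475 (5.172%) in dual-enSERT-2. With these cells left out, a choice made after the data were seen, the mCherry ratio over all gated cells was 1.11 (1.04 to 1.18) and 0.904 (0.756 to 1.07). Among cells with Hoxd13 or Hoxa13 it was 1.09 (1.02 to 1.17) and 1.07 (0.844 to 1.35), and the call was lost (log2 fold 0.09, edgeR adjusted p = 0.877). The eGFP ratios without them were 1.34 (1.31 to 1.38) and 0.864 (0.739 to 1.01), close to those over all gated cells.

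Ptch1, the receptor and a target of Shh, had 145.4 and 142.1 CPM in dual-enSERT-1, with 181.4 and 136.8 CPM in dual-enSERT-2 (log2 fold 0.17, edgeR adjusted p = 0.672). Gli1, a transcription factor induced by the pathway, had 19.71 and 15.18 CPM and 26.21 and 18.84 CPM (log2 fold 0.38 ± 0.083, adjusted p = 0.187). Without the filter on low counts Gli1 passed (adjusted p = 0.00956), and its adjusted p under the other settings ran from 0.0853 to 0.9999. With the filter, none of 12 tested Hedgehog genes passed edgeR's adjusted threshold over all gated cells. Hand2, a posterior factor upstream of Shh, had 184.2 and 198.5 CPM in dual-enSERT-1, with 191.7 and 131.2 CPM in dual-enSERT-2, with opposite order of the classes (adjusted p = 0.854). Lmbr1, which hosts the native ZRS, had 21.23 and 18.93 CPM and 20.98 and 16.95 CPM (adjusted p = 0.654). At the H11 locus of the reporters, Eif4enif1 had 86.91 and 77.15 CPM and 59.57 and 54.09 CPM (adjusted p = 0.717). Its neighbour Drg1 had 121.0 and 118.3 CPM and 110.7 and 114.7 CPM (adjusted p = 0.871).

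The called genes were also set against promoter sequences from RefSeq (GRCm38.p6), 250 bases before to 50 after each start. The motif searched was TAATTA, a homeodomain core that reads alike on both strands. It was found in 4 of 55 matched higher genes (7.27%), namely Bnc2, Frmpd4, Lingo2 and Magi2, and in 1 of 12 matched lower genes, Lmo1, where 6.12% of 27025 genes in the table hold it. The shares are a description and test nothing. The higher genes were long, with a median annotated span of 249 kb against 18.61 kb over all genes tested, and the lower genes had 36.37 kb. Whether intronic reads were counted is not given in the sources used here, and the part of gene length in the calls was not tested.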

How the data were processed

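The deposited files hold raw UMI counts per gene and barcode made by the authors, as their file headers show. Those headers give Cell Ranger as version 7.0.1. Version 3.1.0 of the same tool stands in the submitters' processing notes, with Seurat 4 and build mm39. Use of intronic reads and of strand is not given in the sources used here. Per the labels' protocols, cells were profiled with 10x Genomics 3' chemistry. Dual-enSERT-1 totalled 298653282 UMIs over 20508 barcodes, and dual-enSERT-2 totalled 184301053 over 8885.

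The cells, gene lists and naming rule were chosen with earlier results of these data known. UMIs were summed per library and class and tested with edgeR 4.0.16 in R 4.3.3 (filterByExpr, TMM, robust quasi-likelihood fit, library block, Benjamini-Hochberg over all genes tested). The block pairs the 2 classes of 1 embryo. Genes that set the gate or class were not tested, nor Hoxd13 and Hoxa13 within strata. Standard errors are the log2 fold over the square root of F. Intervals (Poisson, Clopper-Pearson, conditional ratio, 95%) cover counting error only. Up to 15 genes a direction were named, with a log2 ratio of at least 0.58 in both libraries (pseudocount 1 CPM), together with fixed genes and list members that passed. Other genes named, such as Ntn1, Nrp1, Epha4, Ldb2 and Hpse2, were chosen after their values were seen. Alternatives included DESeq2 1.42.0, other gates and thinning to 8000 UMIs. Of 56982 feature IDs, 56236 were in GENCODE M39. Python 3.11.15, SciPy 1.17.1 and Scanpy 1.11.5 (Scrublet) were used.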

Additional observations from a re-analysis of the deposited data

Results flagged for a closer look

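The 3 genes flagged, eGFP, Hand2 and Hoxd13, had 1 order of the classes in 1 library and the opposite order in the other. The difference between the libraries was not tested. Opposite orders were not particular to these genes, since Grem1 and Drg1 had them too. Of 21654 genes tested, 34.5% were higher in Lmx1b-positive cells of both libraries and 24.5% lower in both. The rest had no shared order. For eGFP the ratio of Lmx1b-positive to Lmx1b-negative cells was 1.351 in the dual-enSERT-1 embryo, while in the dual-enSERT-2 embryo it was 0.8499. For Hand2 it was 0.9282 in the former and 1.461 in the latter, and for Hoxd13 0.9078 and 1.217. Construct, embryo and preparation differ between the libraries and cannot be told apart.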

How the results depend on the processing

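Of the 91 genes called, 86 were also called by DESeq2, 88 without TMM scaling, 84 with Lmx1b of at least 1 UMI, 39 with at least 3 UMIs, 76 after thinning to 8000 UMIs, 90 against depth-matched negative cells, 89 without doublets and 46 with mitochondrial UMIs at most 5%. The cause of each change in number was not tested. Every setting reuses the same 2 libraries, so a smaller adjusted p under 1 of them adds no replication. Genes called higher numbered 112 with DESeq2, 400 without the filter on low counts, 129 with at least 1 and 34 with at least 3 Lmx1b UMIs, 179 after thinning, 252 against depth-matched cells, 37 with mitochondrial UMIs at most 5%, and 162 in cells without a Shh UMI, a choice made after the data were seen. Genes called lower numbered 26, 176, 37, 7, 41, 103, 9 and 59 under these settings, and 27 without doublets. Without the replicate block, which pairs the classes of a library, 0 genes were called higher and 0 lower, and the 15 named calls were lost.

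The reporter folds (log2) depended on the library. With either library left out, a value with no test, eGFP ran from -0.23 to 0.43 and mCherry from 0.20 to 0.54 over all gated cells. Among cells with Hoxd13 or Hoxa13, eGFP ran from -0.13 to 0.38 and mCherry from 0.46 to 0.49, and among cells with neither, eGFP from -0.24 to 0.23 and mCherry from -0.28 to 0.083. Over all gated cells, eGFP was -0.13 after thinning. In the same cells mCherry was 0.36 without the filter and passed edgeR there (adjusted p = 0.0021). It was 0.062 after thinning, 0.13 against depth-matched negative cells and 0.16 with Lmx1b of at least 3 UMIs. In cells without a Shh UMI mCherry was -0.015, and under the other gates and fits it was 0.35 to 0.42. The mCherry call among cells with Hoxd13 or Hoxa13 was lost in cells without a Shh UMI (0.088). With Lmx1b of at least 1 UMI, eGFP among cells with neither gene was -0.039.

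Within the Hoxd13 or Hoxa13 stratum, 185 genes were higher and 47 lower with Lmx1b of at least 1 UMI, and 38 lower in cells without a Shh UMI. The sign of Hoxd13 turned without the replicate block (-0.054), with at least 1 Lmx1b UMI (-0.047), after thinning (-0.27), against depth-matched cells (-0.16) and ran from -0.14 to 0.27 with either library left out. With either left out, Hand2 ran from -0.11 to 0.54 and Drg1 from -0.051 to 0.032, and after thinning Eif4enif1 was -0.10. The positive minus negative share of Hoxd13 or Hoxa13 cells in dual-enSERT-1 was 1.65 percentage points, -1.55 after thinning and -7.54 against depth-matched cells. In dual-enSERT-1 the ratio of shares became 1.409 (eGFP) and 1.493 (mCherry) with at least 2 UMIs asked of a reporter. With 1 embryo for each construct and 509 positive cells in dual-enSERT-2, genes of low count were limited by that library.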
